A study of Mus musculus with 8 samples.

Results

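Cytosolic ribosomal proteins were measured by 79 of the 21582 probes on these arrays, which cover 71 genes. A probe was a member where its single gene symbol begins with Rpl or Rps and a number, or is Rplp0, Rplp1, Rplp2 or Rpsa. Probes for the Rps6k kinases (5 probes), for symbols ending in -ps (2 probes) and for several genes at once (3 probes) were left out. The choice used no measured value. Of the 79 members, 78 had a computable ratio on at least 3 arrays of each dye orientation and were tested, 48 for the large and 30 for the small subunit, among 15345 tested probes in all. The probe that was not tested was the second of 2 for Rps18. Members were measured more completely than the rest of the array, since 76 of them (96.2%) had a value on all 8 arrays, against 10486 (48.6%) of all probes.

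Each ribosome is built from a small subunit, which reads the mRNA, and a large subunit, which joins the amino acids, and every cell needs both in equal number. Ribosomal proteins are named Rps or Rpl after their subunit, and their mRNAs are among the most abundant in dividing cells. Most of these mRNAs begin with a cytosine followed by a run of pyrimidines, the terminal oligopyrimidine motif, through which the mTOR pathway controls their translation together.

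Expression was compared in neurospheres, the floating balls that neural stem cells form in culture, made from mouse embryonic cortex of gestational day 12.5. Control neurospheres grew in serum-free medium with leukaemia inhibitory factor (0.15 ng/ml), epidermal growth factor (20 ng/ml) and basic fibroblast growth factor (20 ng/ml), and differentiated once the first 2 of these were taken out. Exposed neurospheres received 320 mg/dl ethanol for 5 days in the same medium and were then differentiated for 3 days without ethanol. Total RNA of both was hybridised together on each of 8 arrays, with ethanol-exposed RNA in Cy3 on replicates 1 to 4 (array codes a3, a5, a1r and a2r) and in Cy5 on replicates 5 to 8 (b3, b4, b5 and b1r). Whether each array had a culture of its own is not stated in the labels, and a p-value here therefore reflects only how these arrays vary, which may be technical. In such bulk RNA, fewer cells of a type and less RNA per cell cannot be told apart.

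Each value was a log2 ratio between the RNAs of 1 array, with the array's median over all probes subtracted, so that 0 stands for the typical probe of that array. No source used here states what was divided by what, either by condition or by dye. Signs are therefore given as deposited and carry no direction of the ethanol effect. For each probe a mean over the arrays with ethanol in Cy3 and a mean over the arrays with ethanol in Cy5 were fitted. The average of these means is called the shared part below. The distance from that average to the mean with ethanol in Cy5, positive where the latter is higher, is called the turning part.

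Between 75.4% and 87.1% of all probes had a computable ratio on an array. Only ratios were at hand, so that the level of a cell type marker could not be read and the labelled cell type could not be checked. The markers that were tested are listed here, where 15345 of all 21582 probes were. All 8 neural progenitor markers and all 6 astrocyte markers were tested, as were 5 of 8 neuronal markers and 4 of 7 markers of the oligodendrocyte lineage. Among other cell types, 4 of 4 endothelial, 2 of 5 meningeal fibroblast, 2 of 5 erythroid and 2 of 6 microglial markers were tested, and none of the microglial markers had a value on all 8 arrays. The progenitor list had a median of 0.27 with ethanol in Cy3 and 0.59 with ethanol in Cy5. Its single genes ran from -2.51 to 1.26 and from -0.57 to 5.13. The astrocyte list had medians of -0.63 and -0.94, and its genes ran from -2.53 to 0.00 and from -1.55 to -0.04. In the same order, medians were 0.62 and 0.29 for neuronal, -0.10 and -0.32 for oligodendrocyte lineage and 0.41 and -0.36 for endothelial markers. For the lists with 2 tested genes they were -0.06 and -0.09 (microglial), -0.13 and -0.29 (meningeal fibroblast) and -0.90 and -0.21 (erythroid). The part of these cell types in the ribosomal protein values was not tested.

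The start of transcription was taken from the RefSeq promoter table (assembly GRCm38.p6) to show which member genes carry the oligopyrimidine motif. The table held 59 of the 71 member genes. In 11 of them (18.6%) the annotated start itself was a cytosine followed by at least 4 further pyrimidines, against 813 of the 27025 genes in the table (3.01%). Such a run began within 10 bases on either side of the start in 33 member genes (55.9%) and in 34.4% of all genes. The 7 letters CCGGAAG, a core of the sites that Ets family factors bind, were found on either strand of the 300 bases around the start in 25 member genes (42.4%) and in 9.93% of all genes. A match to these letters is a description of the sequence and not a binding site. Each line that follows holds 30 bases before the start and 20 from it on the gene's strand, 5′ to 3′, with the oligopyrimidine run at the start in capitals. The first 6 are members with such a start whose values are described in this text, and the last pair are members without one.
Rpl15, chr14:18270967-18271016, minus strand: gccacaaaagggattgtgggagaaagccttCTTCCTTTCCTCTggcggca
Rplp2, chr7:141447621-141447670, plus strand: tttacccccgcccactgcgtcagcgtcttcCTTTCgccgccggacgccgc
Rpl28, chr7:4792935-4792984, plus strand: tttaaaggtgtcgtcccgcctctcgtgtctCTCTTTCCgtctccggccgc
Rps6, chr4:86857348-86857397, minus strand: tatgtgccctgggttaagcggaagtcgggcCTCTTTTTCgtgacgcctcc
Rps10, chr17:27635225-27635274, minus strand: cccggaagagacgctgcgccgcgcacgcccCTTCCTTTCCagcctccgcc
Rps21, chr2:180257349-180257398, plus strand: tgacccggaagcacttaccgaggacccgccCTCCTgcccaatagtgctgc
Rpl37a, chr1:72711230-72711279, plus strand: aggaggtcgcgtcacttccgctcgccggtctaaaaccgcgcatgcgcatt
Rpl3l, chr17:24727796-24727845, plus strand: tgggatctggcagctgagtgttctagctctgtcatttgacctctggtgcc
The run was 13 bases long in Rpl15, 10 in Rps10, 9 in Rps6, 8 in Rpl28 and 5 each in Rplp2 and Rps21.

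Ribosomal protein probes were on the positive side where ethanol-exposed RNA was in Cy3 and near 0 where it was in Cy5. The median over the members with a value was 1.23, 1.07, 0.58 and 0.49 on replicates 1 to 4, a mean of 0.85 ± 0.36 (SD, n = 4 arrays). On replicates 5 to 8 it was -0.18, -0.11, -0.05 and -0.21, a mean of -0.14 ± 0.07 (SD, n = 4 arrays). The 2 orientations did not overlap. The interquartile range of the members was 0.37 to 1.05 on single arrays, against 1.63 to 2.37 for all tested probes. On each array many members held nearly the same value (a ratio of 1 before the array's constant), which narrows this range. Among the members without that value it was 0.59 to 1.63.

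**Figure D1:**
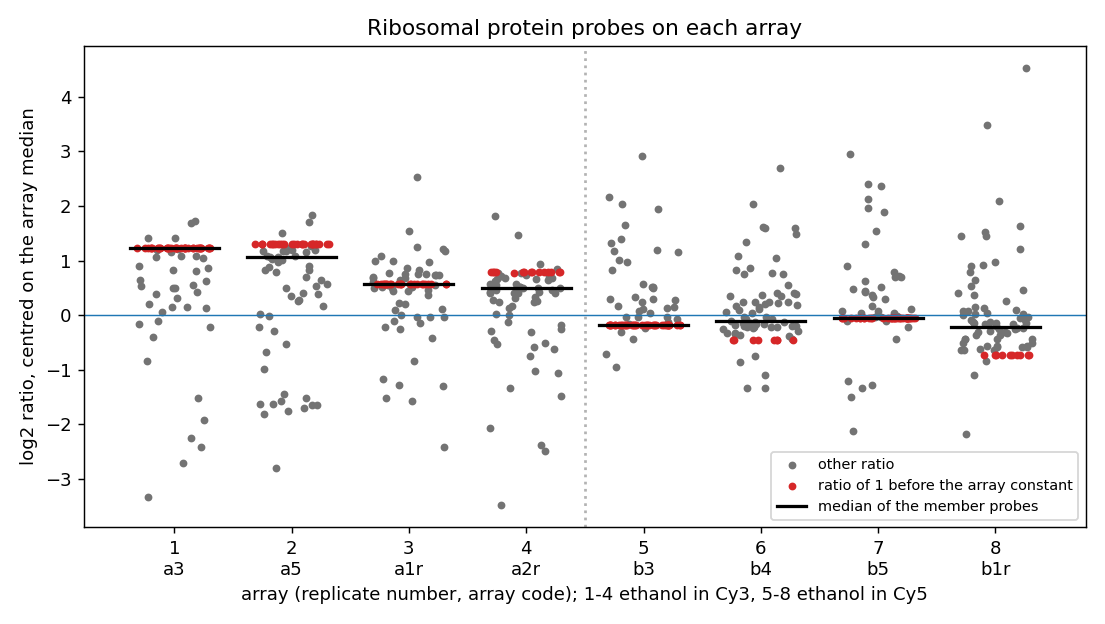
Log2 ratio of each ribosomal protein probe, centred on the array's median, on each of the 8 arrays; black bars are medians over the members and red points are probes whose ratio was 1 (within 0.01 on the log2 scale) before the array's constant was added. The medians were 0.49 to 1.23 on replicates 1 to 4 and -0.21 to -0.05 on replicates 5 to 8, and the red points form 1 flat line on every array.

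The medians of large and small subunit probes lay close together on each array. Their medians were 1.23 and 1.20 on replicate 1, 1.04 and 1.18 on replicate 2, 0.58 and 0.58 on replicate 3, and 0.49 each on replicate 4. On replicates 5 to 8 the large subunit medians were -0.18, -0.07, -0.05 and -0.16, and the small subunit medians were -0.13, -0.17, -0.05 and -0.34. The difference, large minus small, ran from -0.14 to 0.18 over the 8 arrays, with 3 arrays above 0 and 3 below. In the mean over the arrays with ethanol in Cy3 the medians were 0.74 for the large and 0.62 for the small subunit, and with ethanol in Cy5 they were -0.04 and -0.08. In both subunits many values were at a ratio of 1. With these taken as missing, 37 members could be tested. Their medians with ethanol in Cy3 were 0.33 for the large and -0.10 for the small subunit, and with ethanol in Cy5 0.33 and 0.46.

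Many of these values were a ratio of 1 between the dyes, which alone does not show that the RNAs held equal amounts. Each array's deposited values are log2 ratios to which 1 constant per array was added (0.86, 0.87, 0.26, 0.46, 0.13, -0.22, -0.03 and -0.20 on replicates 1 to 8). A value within 0.01 of that constant stands for a ratio of 1 between the dyes, up to this margin. Among the members such values were 37 of 77 on replicate 1, 26 of 78 on replicate 2, 24 of 79 on replicate 3 and 15 of 79 on replicate 4. They were 38 of 77 on replicate 5, 8 of 77 on replicate 6, 38 of 79 on replicate 7 and 10 of 79 on replicate 8. Most of these were a single deposited value per array, to 3 decimals, which 25, 21, 23, 11, 37, 6, 36 and 10 members shared on replicates 1 to 8. Together they were 10.4% to 49.4% of the members on an array, where all probes of the same array gave 1.46% to 2.66%. Over the 8 arrays, 196 of 625 member values (31.4%) were at a ratio of 1, against 2929 of 143064 values of all probes (2.05%). The share was 30.2% for the large subunit and 33.2% for the small. Mitochondrial ribosomal proteins, which form the separate ribosome of that organelle, had 8 such values of 557 (1.44%).

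**Figure D2:**
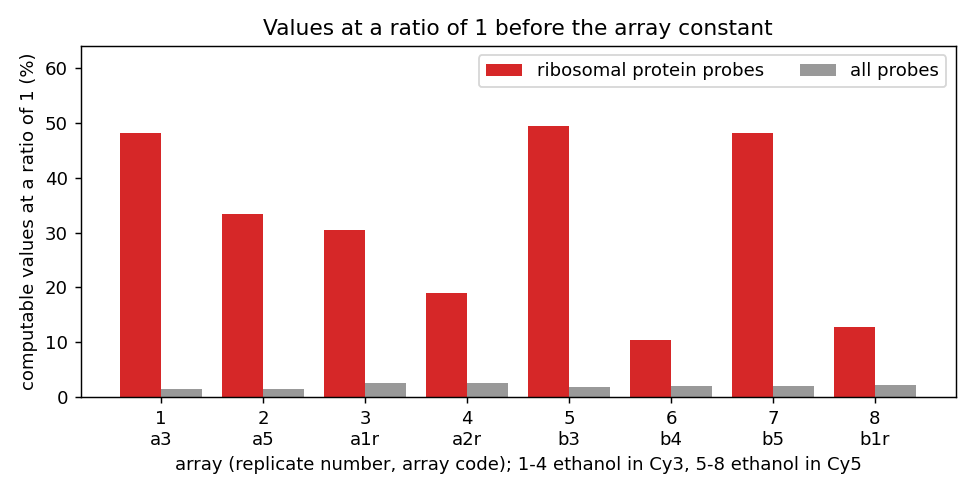
Share of values at a ratio of 1 between the dyes (within 0.01 on the log2 scale, before the array's constant) on each array, for ribosomal protein probes and for all probes with a computable ratio. The member share ran from 10.4% on replicate 6 to 49.4% on replicate 5, while that of all probes stayed between 1.46% and 2.66%.

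A ratio of 1 leaves a centred value that, within that margin, is the same for every such probe of an array and depends only on the array's constant and median. That value was 1.24, 1.31, 0.58 and 0.79 on replicates 1 to 4 and -0.18, -0.45, -0.05 and -0.71 on replicates 5 to 8. The member median was this value itself, to within 0.01, on replicates 1, 3, 5 and 7. Before the constant was added, the member median was 0.00, -0.24, 0.00 and -0.30 on replicates 1 to 4 and 0.00, 0.34, 0.00 and 0.50 on replicates 5 to 8. All probes with a value had a median further from a ratio of 1 on each array, at -1.24, -1.31, -0.58 and -0.79 and then 0.18, 0.45, 0.05 and 0.71. The tables hold no channel intensities or saturation marks, and whether both channels were at the scanner's limit for these probes was not tested.

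Of the 78 tested members, 53 (67.9%) were at a ratio of 1 on at least 1 array, as were 1414 of all tested probes (9.21%). On 4 or more arrays, 59 probes were at a ratio of 1, and 27 of them were members, which is 45.8% of those probes and 34.6% of the members. Rpl37a, a zinc-finger protein of the large subunit, was at a ratio of 1 on all 8 arrays. The second probe for Rps12, of the small subunit, was so on 7. Rpl10a, Rpl13a, Rpl19, Rpl26, Rpl28, Rpl38, Rps4x, Rps21, Rps24 and Rps27l were so on 6 arrays each. The remaining 25 members, 14 of the large and 11 of the small subunit, never were. All 11 genes with an oligopyrimidine start had a probe at a ratio of 1 on at least 1 array, as did 33 of the 48 genes in the table without one (68.8%).

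No member passed an adjusted p of 0.05 in the fit with limma over all tested probes (Benjamini-Hochberg adjustment). In the mean over the arrays with ethanol in Cy3, 0 of 78 members passed, beside 0.906% of all tested probes, and in the mean with ethanol in Cy5 0 passed beside 0.815%. In the shared part 0 passed beside 0% of all probes, and in the turning part 0 passed beside 1.56%. The smallest adjusted p of any member was 0.159, 0.257, 0.171 and 0.231 in these 4 comparisons.

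At an unadjusted p under 0.05, 32 members (41%) were past the threshold in the mean with ethanol in Cy3, beside 17.7% of all tested probes. Of these 30 were positive, beside 5.68% of all probes, and 2 negative, beside 12%. All 30 positive ones were among the 53 members at a ratio of 1 on at least 1 array. The 2 negative ones were among the 25 members never at a ratio of 1. Rpl37a, at a ratio of 1 on all 8 arrays, was itself past the threshold (unadjusted p = 0.0285, limma). The count of 32 members fell when any 1 array was left out, while the member median of 0.67 stayed between 0.62 and 0.82. The count was 4 without replicate 1, 2 without replicate 2, 19 without replicate 3 and 12 without replicate 4. It was 23, 31, 23 and 26 without replicates 5 to 8 in turn, whose values do not enter this mean. It was 1 of 77 without replicates 3, 4 and 8, and 4 of 79 with exact 0 kept as a value. The share of all probes was not counted with arrays left out or exact 0 kept. Whether these falls are particular to the members can therefore not be told. The member count was 3 with the values as deposited, where 22.1% of all probes passed. It was 4 of 37 (10.8%) with ratios of 1 as missing, where 17.4% did. With ethanol in Cy5, 3 members (3.85%) were past that threshold, beside 11.8% of all probes. In the shared part 4 members (5.13%) were, beside 13.9%, and in the turning part 9 members (11.5%), beside 13.8%. The 3 members with ethanol in Cy5 and the 4 in the shared part were all positive. Of all 15345 tested probes, 839 and 749 were past the threshold there with a positive value. The 9 members of the turning part were 3 positive and 6 negative, beside 1333 and 789 of all tested probes.

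The member medians were 0.67 with ethanol in Cy3 and -0.06 with ethanol in Cy5, where all tested probes had medians of -0.16 and 0.05. In the shared part 66 of 78 members were positive, beside 46.1% of all tested probes, and the medians were 0.33 and -0.06. The turning part had a median of -0.27, with 59 members negative, against 0.11 for all tested probes, of which 56.9% were positive. Part of this pattern moved with the ratios of 1. The 53 members with such a value had medians of 0.89 with ethanol in Cy3 and -0.11 with ethanol in Cy5. The 25 members without any had medians of -0.09 and 0.33. With all values at a ratio of 1 taken as missing, 37 members could still be tested, and their medians were 0.28 and 0.33, with a turning part of 0.03 and a shared part of 0.34. The turning part also changed sign with the values as deposited, to 0.05.

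In 32 of 78 members (41%), every array with ethanol in Cy3 lay above every array with ethanol in Cy5, as was the case in 5.21% of all tested probes. These 32 were 20 of the large and 12 of the small subunit. The reverse held for 0 members and for 5.68% of all probes. A value above 0 on every array with ethanol in Cy3 was found in 42 members (53.8%), beside 13.6% of all probes. A ratio of 1 on at least 1 array was found in 31 of the 32, and on at least 2 arrays in 30. With ratios of 1 taken as missing, the orientations did not overlap in 4 of 37 members (10.8%), beside 4.8% of all probes. With the values as deposited the count was 13 of 78 (16.7%), all with a ratio of 1 on some array, beside 2.5% of all probes. Before the constants were added, no member had every Cy3 array above, beside 1.38% of all probes, and 18 (23.1%) had every one below, beside 24%.

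**Figure D3:**
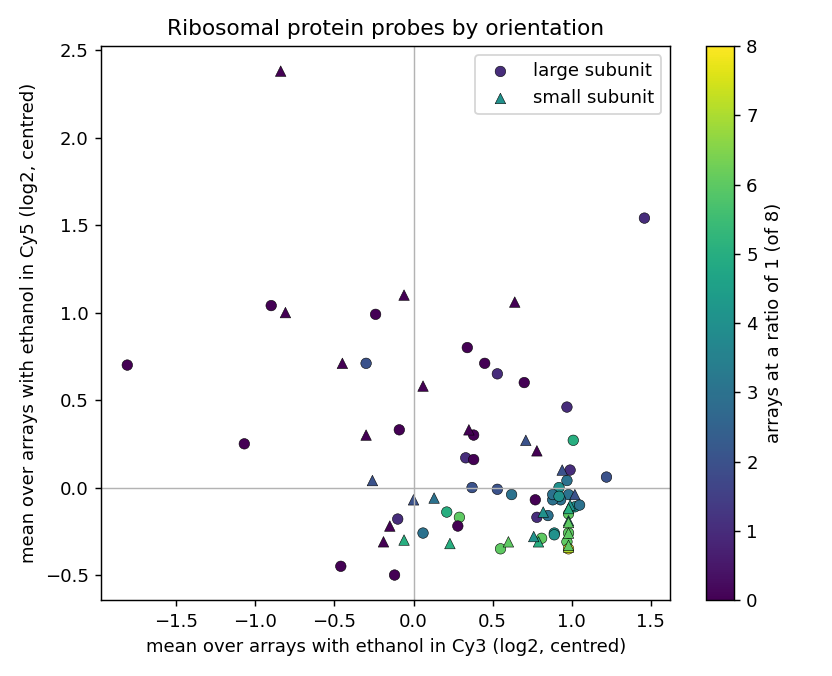
Mean log2 ratio of each tested ribosomal protein probe over the arrays with ethanol in Cy3 (x axis) and in Cy5 (y axis), centred on the array medians, with the colour giving the number of arrays at a ratio of 1. The probes with 4 or more such arrays lie at or below 0 on the y axis except for Rpl6 at 0.27, while those with none lie on both sides of 0 on both axes.

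The 4 members whose orientations stayed apart with ratios of 1 left out were Rpl4, Rpl13 and Rpl29 of the large subunit and Rps13 of the small. Rpl13 had no ratio of 1 on any array. Its values were 0.86, 1.03, 0.74 and 0.46 on replicates 1 to 4 and -0.06, 0.18, 0.04 and -0.44 on replicates 5 to 8. All 4 arrays with ethanol in Cy3 were higher, and the mean there was 0.77 ± 0.38 (SE, adjusted p = 0.315). Before the constants were added, Rpl13 read -0.38, -0.28, 0.16 and -0.33 and then 0.12, 0.63, 0.09 and 0.28, and its orientations overlapped. Those of Rpl4, Rpl29 and Rps13 overlapped before the constants too. Rpl29, a protein at the surface of the large subunit, read 1.07, 1.31, 1.55 and 0.93 and then -0.18, -0.15, 0.48 and 0.07. Its mean with ethanol in Cy3, 1.22 ± 0.38, had the smallest adjusted p of any member (0.159). Rps13 read 1.08, 1.31, 0.99 and 0.71 and then -0.18, 0.20, -0.01 and -0.15. Rpl4 read 0.62, 1.26, 0.83 and 0.41 and then -0.18, 0.37, -0.01 and -0.84, so that its orientations came within 0.1 of each other.

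Among the stalk proteins, which form the arm of the large subunit that recruits elongation factors, Rplp2 stood apart from Rplp0 and Rplp1. Rplp2 was positive on every array, at 1.23, 1.50, 2.53 and 0.56 on replicates 1 to 4 and 2.16, 1.08, 2.37 and 0.53 on replicates 5 to 8. The ranges of both orientations nearly coincided. Its shared part was 1.50 ± 0.34 (SE), the highest of all members, and its turning part 0.04 ± 0.34. With an adjusted p of 0.171 the shared part did not pass over all probes, and the value on replicate 1 was at a ratio of 1. Rplp1 read 1.24, -1.75, 0.58 and 0.79 and then 0.57, -0.38, -0.05 and -0.72, of which 5 values were at a ratio of 1. Its low value on replicate 2 set its mean with ethanol in Cy3, which was 0.21 ± 0.54 with that array and 0.87 without it. Rplp0 had 2 probes, and they differed: the first read 1.24, 0.90, 0.58 and 0.67 and then -0.18, -0.06, 0.05 and -0.43, and the second 1.41, -1.57, -0.26 and -0.52 and then 0.51, -1.34, 1.31 and 3.48.

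The members highest with ethanol in Cy3 after Rplp2 and Rpl29 shared nearly the same values. Rpl35a, whose loss causes Diamond-Blackfan anaemia in people, read 1.68, 1.31, 0.68 and 0.52 and then -0.18, 0.09, -0.05 and -0.24 on its first probe. Rpl15, a core protein of the large subunit, read 1.24, 1.31, 0.76 and 0.78 and then -0.18, -0.12, -0.05 and -0.08. Their means with ethanol in Cy3 were 1.05 ± 0.39 and 1.02 ± 0.37, with adjusted p-values of 0.218 and 0.209. In the small subunit Rps13 and Rps10 were the highest, with means of 1.02 and 0.99. Rps19, Rps24, Rps21, Rps4x, the second probe for Rps12 and the first for Rps16 followed at 0.98 each, and their order is not resolved. Rps10, Rps19 and Rps24 are also known from Diamond-Blackfan anaemia. Rps10 had 4 values at a ratio of 1, Rps19 had 4 and Rps24 had 6. The 4 values of Rps24 with ethanol in Cy3 were all of this kind, at 1.24, 1.31, 0.58 and 0.79.

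Rpl37a showed what a probe gives when every value is at a ratio of 1. It read 1.24, 1.31, 0.58 and 0.79 on replicates 1 to 4 and -0.18, -0.45, -0.05 and -0.72 on replicates 5 to 8. Its orientations did not overlap, and its turning part was -0.66 ± 0.27 (unadjusted p = 0.0342, adjusted p = 0.313). The second probe for Rps12, Rps21 and Rpl28 followed the same course with 7, 6 and 6 such arrays, and turning parts of -0.66, -0.65 and -0.64. These 4 probes were among the members with the smallest unadjusted p in the turning part.

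Among members chosen for their role, Rps6, the protein that S6 kinase phosphorylates under mTOR, read 1.24, 0.80, 0.58 and 0.68 and then -0.18, 0.24, -0.05 and -0.58, with 4 values at a ratio of 1. Rpl3, which lines the peptidyl transferase centre, read 1.24, 1.17, 0.61 and 0.72 and then -0.18, 0.38, -0.05 and -0.44. In both genes all arrays with ethanol in Cy3 were higher than all others. Rpl11, which with Rpl5 and the 5S RNA can bind Mdm2 and so stabilise p53, read 1.41, 1.31, 0.78 and 0.43 and then -0.18, 0.04, -0.05 and 0.02. Its partner Rpl5 was near that course except on replicate 2, at 1.24, -1.80, 0.37 and 0.41 and then -0.18, -0.22, -0.05 and -0.58. Without replicate 2 the mean of Rpl5 with ethanol in Cy3 was 0.67 in place of 0.06, and without replicate 1 it was -0.34.

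Rps3, at the entry of the mRNA channel, read -3.33 on replicate 1 and 1.31, 0.49 and 0.50 on replicates 2 to 4, and then -0.04, 0.40, -0.05 and -0.14. That 1 low array turned its mean with ethanol in Cy3 to -0.26 ± 0.68, against 0.76 without it. Rps14, a maturation protein of the small subunit whose loss marks the 5q- syndrome, read 1.23, 0.98, -0.03 and 0.64 and then 0.27, -0.04, 1.55 and -0.72. Rpl10, which joins the large subunit in its last steps of maturation, read 0.50, 0.53, -0.21 and 0.49 and then 0.49, 0.11, 0.79 and -0.72. The orientations overlapped in all 3. Rpl22 was lower, at -0.16, -0.67, 0.09 and 0.25 and then -0.95, -0.12, -1.21 and 0.26, and its mean with ethanol in Cy5, -0.50 ± 0.42, was the lowest of all members. Rpl41, the shortest ribosomal protein, read 0.65, 0.70, 0.22 and 0.24 and then 2.04, -0.15, 0.91 and 0.03.

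Rpsa, which also serves as a laminin receptor at the cell surface, had 2 probes. The first had the highest shared part of any small subunit probe and was positive on every array, at 0.15, 1.18, 0.75 and 0.49 and then 1.66, 1.48, 0.70 and 0.41, with none at a ratio of 1. That shared part was 0.85 ± 0.29 (adjusted p = 0.260) and the turning part 0.21 ± 0.29. The second probe for Rpsa had a shared part of 0.32 and read 0.14, 1.70, -1.29 and -0.31 and then 1.17, 0.36, 1.89 and -1.09. Both had the higher mean with ethanol in Cy5, though the ranges overlapped. By unadjusted p-value, Rpl14 (0.71 ± 0.30) and Rpl29 (0.64 ± 0.27) came next after Rplp2 in the shared part of the large subunit, and Rps18 (0.52 ± 0.27, first probe) and Rps13 (0.49 ± 0.26) next after the first probe for Rpsa in the small. None of these passed over all probes, with adjusted p-values of 0.330, 0.333, 0.414 and 0.431.

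The turning part was positive in 19 of 78 members, beside 56.9% of all tested probes. Of these 19, 15 were among the 25 members never at a ratio of 1. Rps25, needed for initiation at some internal ribosome entry sites, read -0.11, -0.99, 1.21 and -3.48 and then 1.16, 0.87, 2.95 and 4.53. It had no value at a ratio of 1, and its turning part of 1.61 ± 0.56 was the highest of all members, with the smallest adjusted p there (0.231). Its mean was -0.84 ± 0.80 with ethanol in Cy3 and 2.38 ± 0.80 with ethanol in Cy5. The ranges overlapped through replicate 3, and without replicate 4 the first of these means was 0.03. Rpl3l, a paralogue of Rpl3 made in muscle, read -2.71, -1.62, -0.42 and -2.49 and then 2.91, -0.07, -2.12 and 2.09. It was negative on all arrays with ethanol in Cy3, at -1.81 ± 0.77 (adjusted p = 0.264), and ranged from -2.12 to 2.91 on the others.

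**Figure D4:**
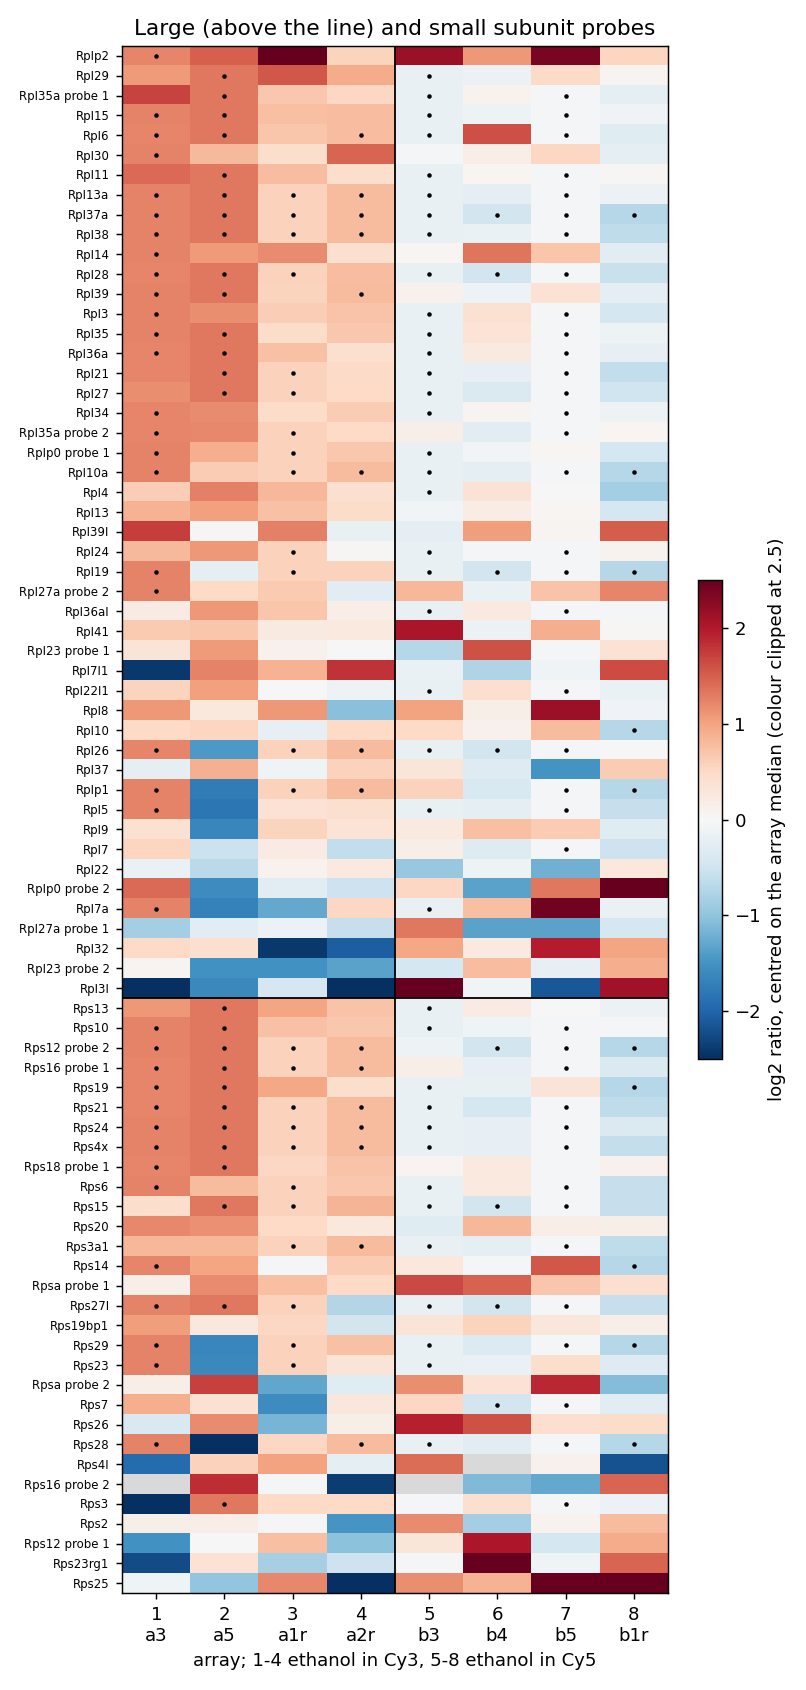
Centred log2 ratio (colour, red positive and blue negative, limited at 2.5) of each tested ribosomal protein probe (rows) on the 8 arrays (columns), large subunit above the line and small below, each sorted by the mean with ethanol in Cy3; dots mark a ratio of 1 before the array constant, and grey a missing value. The dots gather in the upper rows of both subunits, and on replicate 2 a group that includes Rpl5, Rplp1, Rps23, Rps28 and Rps29 is blue while most members are red.

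On replicate 2 some members lay far below the others. Rps28 read -2.80 there, Rpl5 -1.80, Rplp1 -1.75, Rpl7a -1.69, Rpl9 and Rps29 -1.64 each, Rps23 -1.62 and Rpl26 -1.44. The member median was 1.07 on that array, and the lower quartile of all tested probes was -1.18. Rpl3l (-1.62) and the second probes for Rplp0 (-1.57) and Rpl23 (-1.51) were as low, and were negative on replicates 3 and 4 too. On replicates 1, 3 and 4 the probes listed from Rps28 to Rpl26 lay between 0.32 and 1.24, except for Rpl7a at -1.27 on replicate 3. Each of them except Rpl9 was at a ratio of 1 on other arrays, on 2 for Rpl7a, 3 for Rpl5 and Rps23, 5 for Rplp1, Rps28 and Rps29, and 6 for Rpl26.

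Among 7 genes with 2 tested probes, 5 gave opposite signs from them with ethanol in Cy3. These were Rpl23, Rpl27a, Rplp0, Rps12 and Rps16, and in Rpl23, Rpl27a and Rps16 the shared part differed in sign too. The pairs for Rpl35a and Rpsa had the same sign. In 4 of the 5, the negative probe came from 1 run of consecutive sequence accessions that has 66 probes on the array, of which the annotation names 8 as small RNA genes or their hosts. Introns of ribosomal protein genes commonly hold small nucleolar RNAs. Which RNA these probes read was not tested. The 5 members in the run (the second probes for Rpl23 and Rps16, the first for Rpl27a and Rps12, and the only one for Rpl32) had no value at a ratio of 1. All 5 were negative with ethanol in Cy3, with a median of -0.46, beside 8650 of all 15345 tested probes, whose median was -0.16. Of the 5, 1 had an unadjusted p under 0.05 there (limma).

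Rpl32 was the widest of these, at 0.49, 0.40, -2.42 and -2.07 on replicates 1 to 4 and 0.97, 0.24, 1.97 and 0.98 on replicates 5 to 8, with a turning part of 0.97 ± 0.42. The second probe for Rpl23 read 0.06, -1.51, -1.52 and -1.33 and then -0.44, 0.77, -0.21 and 0.90. Its mean with ethanol in Cy3 was -1.07 ± 0.46, where the first probe for Rpl23 had 0.38 ± 0.47. The symbol rule also took in Rps19bp1, a regulator of the deacetylase Sirt1, and Rps23rg1, a retroposed copy of Rps23, neither of which is a subunit of the ribosome. Without these 7 probes the 71 that remained had medians of 0.77 with ethanol in Cy3, -0.07 with ethanol in Cy5, 0.34 in the shared part and -0.37 in the turning part.

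Paralogues that stand in for a ribosomal protein in some tissues held both kinds of probe. Rps27l, the p53-induced copy of Rps27, read 1.24, 1.31, 0.58 and -0.74 and then -0.18, -0.45, -0.05 and -0.57, with 6 values at a ratio of 1. Rpl39l, a copy of Rpl39 made mainly in testis, had none and read 1.72, 0.03, 1.25 and -0.18 and then -0.24, 1.05, 0.07 and 1.52. Rpl39 itself read 1.24, 1.31, 0.56 and 0.79 and then 0.11, -0.12, 0.37 and -0.23. All arrays with ethanol in Cy3 were higher than the others for Rpl39, while those of its copy overlapped.

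Other genes of ribosome production and translation were taken from lists drawn up by function. No gene of the lists passed an adjusted p of 0.05 in any of the 4 comparisons (limma, Benjamini-Hochberg). Ribosome biogenesis factors, which process and assemble the ribosomal RNA, had 40 of 47 genes tested, with medians of 0.32 with ethanol in Cy3 and 0.02 with ethanol in Cy5. At an unadjusted p under 0.05, 5 of them (12.5%) passed with ethanol in Cy3, 1 positive and 4 negative, beside 17.7% of all tested probes (5.68% positive and 12% negative). The other mRNAs with an oligopyrimidine start, chiefly elongation and initiation factors, had all 16 genes tested. Their medians were 0.57 and 0.10, and 6 (37.5%) passed the unadjusted threshold with ethanol in Cy3, all positive, beside 5.68% of all tested probes. On the 1 probe taken for each gene they held 10 values at a ratio of 1, in 4 genes. For Tpt1 that probe had none, while its other probe was at a ratio of 1 on 8 arrays. The mTOR, S6 kinase and cap-binding genes had 14 of 20 tested, with medians of 0.32 and -0.08, of which 2 (14.3%) passed the unadjusted threshold with ethanol in Cy3, both negative, beside 12% of all tested probes.

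Mitochondrial ribosomal proteins gave the nearest contrast to the cytosolic ones. Their 69 tested probes had medians of 0.53 with ethanol in Cy3 and 0.32 with ethanol in Cy5, where the cytosolic set had 0.67 and -0.06. The orientations were thus closer, but 31.4% of cytosolic values were at a ratio of 1, against 1.44% of mitochondrial ones. With these taken as missing, the 37 cytosolic members left had medians of 0.28 and 0.33 and a turning part of 0.03. The shared part of the 69 mitochondrial probes had a median of 0.39, and their turning part -0.08. Of these probes, 12 (17.4%) passed the unadjusted threshold in the shared part, as did 4 cytosolic members (5.13%), all of them positive. Of all 15345 tested probes, 749 passed there with a positive value and 1383 with a negative one, together 13.9%. The difference between these sets was not tested. Fau, the precursor of a small subunit protein that the symbol rule does not reach, read -0.62, 0.04, -0.98 and -0.71 and then 2.01, 1.06, 1.91 and 0.23. Its orientations did not overlap, in the opposite order to the 32 members, and it had no value at a ratio of 1. Its turning part was 0.93 ± 0.31 (adjusted p = 0.213).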

How the data were processed

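The authors deposited a table of log2 ratios for all probes and arrays, without intensities. RNA was labelled with a 3DNA dendrimer kit, per the labels' protocols. How the arrays were scanned, background-corrected and normalized was not given in the sources used here. For ratios under 0.1, each deposited value was, within 0.0011, an array's constant plus the log2 of a ratio of 3 decimals. An array's highest value, its constant plus the log2 of 100000, and exact 0 were treated as missing. Arrays were centred on their medians (-0.435 to 0.516). The number of arrays limits the precision.

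Probes with values on 3 or more arrays of each orientation went into limma (version 3.58.1 under R 4.3.3; lmFit, then eBayes), a step checked on simulated data, with Benjamini-Hochberg adjustment over all 15345. Errors of means are the fit's SEs. Annotation symbols were updated by Entrez number, which matched for 77 members. The build behind the arrays was not given, and coordinates are those of the RefSeq table.

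Members and lists were chosen with earlier results of these data known. Probes were named by this rule: any past the threshold, the 4 highest and 2 lowest means with ethanol in Cy3 and the 3 smallest p-values in the shared and turning parts of each subunit, fixed genes by role, and genes with 2 probes. Rpl4, Rpl13, Rpl39, Rpl39l, Rps27l and the low probes of replicate 2 were named after their values were seen. So was the count of ratios of 1 chosen. Alternatives were the values as deposited, equal spread, exact 0 kept, other minimums of arrays, array weights, a block, arrays left out and 1 value per gene.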

Additional observations from a re-analysis of the deposited data

Results flagged for a closer look

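Among 84 sets of 4 arrays examined, 2 held an array far from the others, where chance gives about 1 in 20. Rpl10 read -0.21 on replicate 3, while replicates 1, 2 and 4 of the same orientation gave 0.49 to 0.53. The second probe for Rpl23 read 0.06 on replicate 1, and -1.52 to -1.33 on the others of that orientation. The median over the members lay on opposite sides of 0 in the 2 orientations on every array, with means of 0.85 with ethanol in Cy3 and -0.14 with ethanol in Cy5. The same held for the large subunit (0.84 and -0.11) and the small subunit (0.87 and -0.17). These differences were not tested.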

How the results depend on the processing

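Of 951 recomputed values, 922 kept their direction and their side of the threshold or, for medians without a test, moved by less than the spread between arrays. No member passed an adjusted p of 0.05 under any alternative (limma, Benjamini-Hochberg). With the values as deposited the member medians were 0.31 with ethanol in Cy3, 0.21 with ethanol in Cy5 and 0.05 in the turning part. With exact 0 kept they were 0.40, 0.12 and -0.03. Without the arrays with r in their code they were 0.92, 0.01 and -0.37, and the shared median was 0.52. With ratios of 1 as missing, an alternative chosen after seeing the data, the medians were 0.28, 0.33 and 0.03, and the large minus small difference was 0.43 with ethanol in Cy3 and -0.12 with ethanol in Cy5. Leaving out the 5 probes of the accession run, Rps19bp1 and Rps23rg1, also chosen later, changed no direction of a median. Leaving out single arrays moved the medians between 0.62 and 0.82 with ethanol in Cy3, between -0.09 and 0.00 with ethanol in Cy5, between 0.30 and 0.38 in the shared part and between -0.37 and -0.30 in the turning part.

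The mean with ethanol in Cy3 changed sign with the values as deposited for Rpl10 (-0.04), Rpl5 (-0.31), Rplp1 (-0.15) and the second probe for Rpsa (-0.31). With exact 0 kept it did so for Rpl5 (-0.25), Rplp1 (-0.09) and that Rpsa probe (-0.25). Array weights gave -0.01 for Rpl5, and leaving out the arrays with r in their code gave -0.28 for Rpl5 and -0.26 for Rplp1. Over the arrays left out 1 at a time, that mean ran from -0.24 to 0.06 for Rpl22, from -0.34 to 0.67 for Rpl5 and from -0.78 to 0.21 for the second probe for Rplp0. It ran from -0.13 to 0.87 for Rplp1, from -1.21 to 0.90 for the second probe for Rps16, from -1.53 to 0.03 for Rps25, from -0.78 to 0.76 for Rps3 and from -0.49 to 0.51 for the second probe for Rpsa. The cause was not tested.

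Arrays with the same number in their code did not deviate together (correlations of 0.014, -0.016 and 0.044), so the numbers were not taken as pairs. With them as a block (correlation 0.00891), 0 members passed and the shared median was 0.33.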

Other observations

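Among the 59 probes at a ratio of 1 on 4 or more arrays, the named ones outside the member set included Tpt1 on 8 arrays, Fth1 on 7, Ftl1, Prdx1 and Txn1 on 5 each, and Eef1a1, Dbi, Fabp5, Hspa5 and Pebp1 on 4 each. Tpt1 and Eef1a1 encode mRNAs with an oligopyrimidine start, Fth1 and Ftl1 the chains of the iron store ferritin, and Prdx1 and Txn1 enzymes of thiol redox control. The set also held Ndst4 and Adgrl4 on 7 arrays each. Of the 59 probes, 8 had no gene name. These genes were picked from the set after it was seen.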
